A study of Caenorhabditis elegans with 15 samples.

Results

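Fraction H3 is a mixture of oligomeric procyanidins, enriched from a leaf extract of Combretum mucronatum, and gene expression of the nematode Caenorhabditis elegans exposed to the middle of its 3 concentrations, 0.2 mg/mL, was compared with that of the negative control. The 6 arrays of these groups were taken by their labels, 3 of H3 0.2 and 3 of NK (the control), out of 15 arrays in the series. All arrays were of whole worms of the N2 wildtype strain, cultured to young adults on Escherichia coli OP50, washed free of bacteria and kept for 6 h at 20 °C in M9 buffer. The labels call NK untreated, and the methods give it the same 1% of DMSO that dissolved the fraction. The other groups were H3 at 0.02 mg/mL (H3 0.02), H3 at 2 mg/mL (H3 2) and the crude hydroethanolic extract (RE), each with 3 arrays. Each sample pooled all worms of 1 flask, so that a change in the share of a tissue and a change in RNA per cell cannot be told apart.

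Procyanidins are condensed tannins, chains of flavan-3-ols that bind proteins and chelate metals. A nematode meets such plant compounds at its cuticle and in its gut. Several systems are known to answer foreign chemicals and protein damage in this worm: small heat shock proteins hold unfolding proteins, cytochrome P450 enzymes and UDP-glucuronosyltransferases modify and conjugate small molecules, ABC transporters export them, and the intestine secretes lysozymes, lectins and saposin-like proteins that also serve in defence against microbes.

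Levels are RMA values on the log2 scale, so that a difference of 1 is a 2-fold change. The table held 29317 probe sets, and 25605 of them were assigned to 1 gene. Array medians lay between 3.54 and 3.65. The table gave no detection calls, so that a level below an array's median was not shown to be above background. The series was divided by array number into a set of lower numbers, here set A, and a set of higher numbers, here set B. The numbers themselves have no gap at this cut, and what they stand for is not stated. Set A held control replicates 1 and 2 and H3 0.2 replicate 1. Set B held control replicate 3 and H3 0.2 replicates 2 and 3. The 2 sets lay apart on the first principal component (52.0% of the variance), and the controls lay apart from all treated arrays on the second (14.9%). Within set B, H3 0.2 replicate 3 and RE replicate 3 stood apart on the third component, with scores of -38.12 and -33.62 against 7.93 to 15.56 in the other 5 arrays. Results are therefore given from the fit of all 5 groups and, where the call or the size changes, also with array set added to that fit as a block. The block does not model the split within set B, where control replicate 3 scored 15.56 on the third component.

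At 0.2 mg/mL of fraction H3, 135 probe sets were higher and 188 were lower than in the control, which was 0.46% and 0.641% of the 29317 tested and 1.1% together (limma, called where the Benjamini-Hochberg adjusted p did not exceed 0.05 and the change was 2-fold or more). The rises were larger than the falls: 60 probe sets rose and 28 fell at least 4-fold, and 15 rose and 4 fell at least 16-fold. Some probe sets shared all their values with another, so that the calls held 312 distinct profiles. They named 293 genes or groups of genes that share a probe set, 118 higher and 175 lower by the probe set of highest mean level, which was 0.456% and 0.676% of 25876 genes.

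All 323 called probe sets had 3 H3 0.2 arrays that did not overlap the 3 control arrays, as had 13.5% of all probe sets, and all changed in the same direction within both array sets, as did 59.5% of all probe sets. Since a call needs separation over these same arrays, neither is independent of the calls. In the plot of the within-set differences, 228 of them changed at least 2-fold in both sets. The rises were of like size, with a median difference of 1.91 in set A and 1.93 in set B, and the falls were larger in set A, with medians of -1.60 and -1.22. With the array set as a block, 651 probe sets were called, 348 higher and 303 lower, and 313 of the 323 were among them. The other 10 had a fitted change just under 2-fold with the block (0.89 to 0.99 in size) at adjusted p-values of at most 0.0168. A test of whether the change differed between the sets called no probe set after adjustment (smallest adjusted p = 0.0876) and gave an unadjusted p under 0.05 for 2172 probe sets, or 7.41%, and for 79 of the 323. The count also depended on single arrays. It was 209 without control replicate 1, 214 without control replicate 2 and 210 without H3 0.2 replicate 3, the falls numbered 335 without control replicate 3, and 170 probe sets were called whichever of the 6 arrays was left out.

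**Figure D1:**
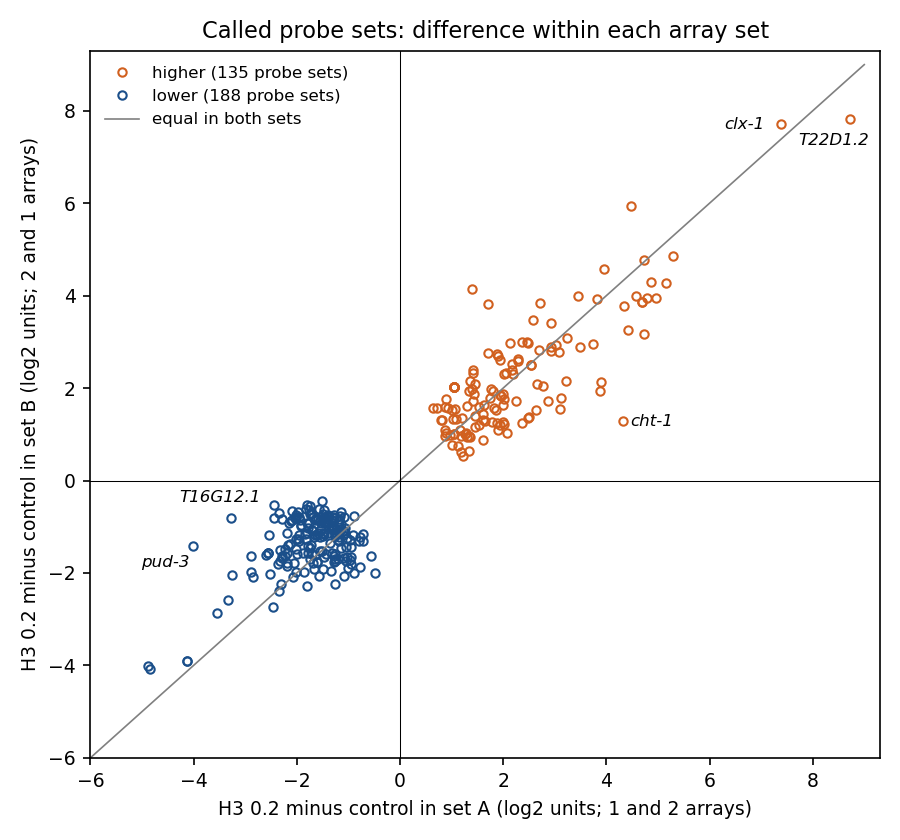
Difference between H3 0.2 and control (log2 units) within set A on the x axis and within set B on the y axis, for the 135 higher and 188 lower probe sets; the diagonal marks equal differences. All points lie where both differences have the same sign, T22D1.2 and clx-1 are the most raised in both sets, and cht-1, T16G12.1 and pud-3 changed more in set A than in set B.

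The largest rises belonged to genes without a known function. T22D1.2 measured 11.23, 10.71 and 10.05 in H3 0.2 replicates 1 to 3 and 2.24, 2.76 and 2.56 in control replicates 1 to 3. It thus went from below the array medians to far above them, a rise of 8.14 ± 0.48 (SE) or 282-fold (limma adjusted p = 1.6e-06). The next was clx-1, with 10.67, 9.85 and 9.44 against 3.07, 3.50 and 1.93, a rise of 7.16 ± 0.59 (adjusted p = 4.0e-05). In both genes the treated array of set A was the highest of its group. The gap between the groups was several times the spread within either, and all control values of both genes were below the medians of their arrays, where a level was not shown to be above background.

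Y46H3D.8 (chromosome V, 1630309 to 1631248, WBcel235) rose from 4.0, 3.63 and 3.11 to 8.29, 8.88 and 9.23, by 5.22 ± 0.26 (adjusted p = 2.7e-07). Y46H3D.9, which lies within its span, rose by 2.72, and whether probes of 1 read the other was not tested. On chromosome IV, 3 neighbours between 10891333 and 10896612 were higher. These were srlf-13 (also F13E9.4) by 5.12 ± 0.24, from 2.28, 2.42 and 2.72 to 7.65, 7.47 and 7.68, srlf-14 by 4.42 and srlf-12 by 3.11. A second group lay on chromosome II between 12620649 and 12627570, where 4 adjoining measured genes rose. These were Y38E10A.14, by 4.42, and 3 nspe genes, which encode nematode-specific peptides, nspe-7 by 3.14, nspe-8 by 3.10 and nspe-1 by 2.16. Of the 8 nspe genes, 3 were called, where 0.456% of all genes were called higher. The other 5 had positive differences, and the median over the 8 was 1.55 against 0.02 over all genes. That list was chosen with earlier results of these arrays known, so that its count is no independent evidence. On chromosome IV, K01A6.4 rose by 3.70 and K01A6.8, with 1 measured gene between them, by 2.89. K01A6.8 had 7.84, 7.82 and 7.89 against 4.81, 5.03 and 5.04, with little spread in either group, and an adjusted p of 5.7e-08. Of the called genes with a position on a nuclear chromosome, 21 of the higher (18.6%) and 18 of the lower had another gene called in the same direction with at most 2 measured genes between them.

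Other large rises were those of H12D21.6 (4.39), F41G3.20 (4.06), T22D1.21 (4.02), B0205.13 (3.68), C50F7.5 (3.03) and srlf-3 (2.78). C50F7.5 was far above the array medians in both groups, with 10.32, 10.57 and 9.15 in the controls and 12.97 to 13.16 with H3 0.2. All 13 members of a list of proline-rich and uncharacterised induced genes were called higher, with a median of 4.39. The study chose that list on these arrays, so that it is no independent evidence of its direction. Among induced genes with a known product, parg-2, a poly(ADP-ribose) glycohydrolase that removes ADP-ribose chains from proteins, rose by 4.57 ± 0.41, from 4.51, 4.46 and 4.48 to 9.64, 8.85 and 8.65. Its neighbour npr-44, named as a neuropeptide receptor, rose by 1.65. The chitinase gene cht-1 measured 11.15, 11.27 and 11.33 with H3 0.2 and 6.99, 6.68 and 10.01 in the controls: the set B control was the highest control by far, and the difference was 4.32 within set A and 1.29 within set B. Its call (3.36, adjusted p = 0.014) was lost without control replicate 1 or 2 or H3 0.2 replicate 2 or 3 (adjusted p of up to 0.076). That of scl-11, a secreted protein of the SCP family, was also lost when arrays other than H3 0.2 replicate 3 were left out in turn (3.51, adjusted p = 0.029 and up to 0.10), and with the array set as a block it was 4.04 at an adjusted p of 5.6e-06.

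**Figure D2:**
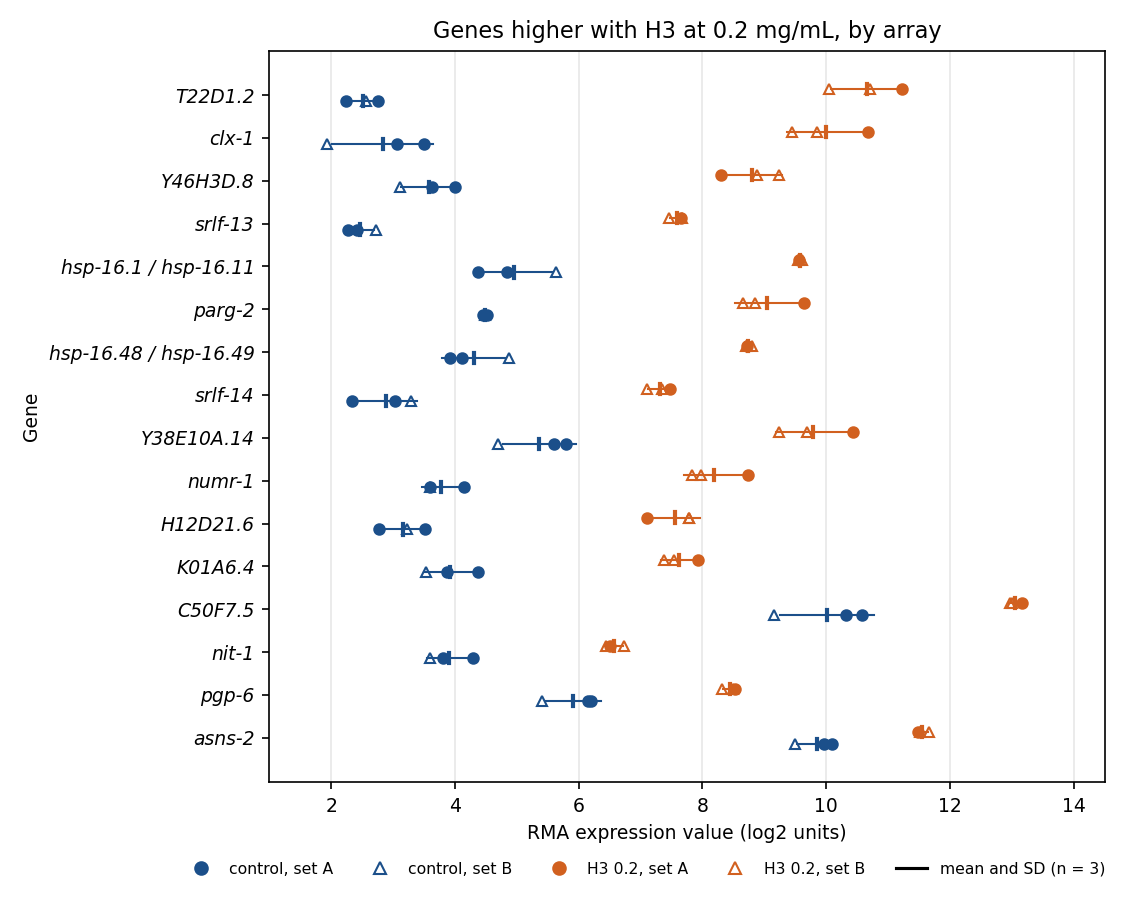
RMA expression value (log2 units, x axis) of 16 genes called higher (y axis) in each control array (blue) and each H3 0.2 array (orange); filled circles are set A, open triangles set B, bars the mean and SD of 3 arrays. In every gene the lowest H3 0.2 array lies above the highest control array, and T22D1.2 has the widest gap, from 2.76 to 10.05.

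Of the stress gene lists, small heat shock proteins had 3 members called higher, and HSP70 and co-chaperones, metal response and SKN-1 pathway 1 each. Over all genes, 0.456% were called higher and 0.676% lower. The small heat shock proteins of the hsp-16 group are ATP-independent chaperones that rise with heat and other protein damage. The probe set for the near-identical pair hsp-16.1 and hsp-16.11 measured 9.56, 9.61 and 9.55 with H3 0.2 and 4.37, 4.84 and 5.64 in the controls, a rise of 4.63 ± 0.25 (adjusted p = 6.9e-07). That for hsp-16.48 and hsp-16.49 measured 8.7, 8.8 and 8.7 against 3.9, 4.1 and 4.9, a rise of 4.43 ± 0.21. In both, the treated arrays lay close together, and the set B control was the highest of the controls. The probe set of hsp-16.2 was dim in both groups, below the array medians, and differed by 1.13 (adjusted p = 0.0078, called in each leave-one-out fit but that without H3 0.2 replicate 3, where it was 0.99). No other of the 14 small heat shock proteins was called; with the block hsp-43 was, at 1.80. Among 17 HSP70, HSP90 and co-chaperone genes, the pair F44E5.4 and F44E5.5, copies of an inducible HSP70, was the one called. Its probe set of highest mean level had 7.04, 6.70 and 6.70 against 3.30, 3.28 and 3.75, a rise of 3.37. Another probe set of the same pair was also called, with a smaller rise of 1.055. The list medians were 0.17 and 0.15.

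numr-1, a nuclear protein known to rise with cadmium and other metals, was 8.73, 7.83 and 7.98 with H3 0.2 and 4.15, 3.59 and 3.60 in the controls, a rise of 4.4 ± 0.36 (adjusted p = 4.0e-05). The metallothionein mtl-1, which binds metals, changed the other way, with 8.23, 7.55 and 7.05 against 9.71, 9.26 and 9.01. It fell by 1.72 (adjusted p = 0.025), a call lost without control replicate 1 or 2 or H3 0.2 replicate 2 or 3 (up to 0.13); with the block it was -1.5 at an adjusted p of 0.00086. None of the other 13 members of the metal list was called; cdr-4, a cadmium-responsive gene, stood at 2.2 (adjusted p = 0.095) and was called with the block (2.60). Of 18 genes of the oxidative stress pathway under the transcription factor SKN-1, the nitrilase nit-1 rose, by 2.66 ± 0.19 from 4.29, 3.81 and 3.60 to 6.51, 6.74 and 6.44. No antioxidant enzyme of 19, no iron gene of 8 and no gene of the hypoxia and hydrogen sulfide response of 11 was called. Of 21 genes of the unfolded protein response, asns-2 was called.

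Genes for drug metabolism moved in both directions, with more falls. Of 74 cytochrome P450 genes 1 rose and 4 fell, and of 67 UDP-glucuronosyltransferases none rose and 7 fell. Of all genes, 0.456% were called higher and 0.676% lower. The list medians were -0.05 and -0.12. With the block 2 of the UDP-glucuronosyltransferases were higher and 9 lower, and of all genes 1.22% were then called higher and 1.05% lower. In the fits without the block, leaving out H3 0.2 replicate 1 gave 1 rise in this family. Leaving out control replicate 1 or H3 0.2 replicate 2 gave 4 falls. The call of the P450 gene that rose, cyp-14A5, was lost when any of the 6 arrays was left out (2.02, adjusted p = 0.024 and up to 0.098), while with the block it was 2.32 at 2.9e-07. Its control of set B, 4.52, was lower than those of set A, 5.35 and 5.51, as were its set B treated values, 6.87 and 6.96, than the 7.61 of set A. The largest P450 fall was that of cyp-34A9, from 8.03, 7.80 and 7.66 to 5.90, 5.50 and 5.85, or by 2.08 ± 0.20 (adjusted p = 0.00013), followed by cyp-25A2 (-1.65), cyp-37B1 (-1.32) and cyp-13A2 (-1.08, lost in all leave-one-out fits except that without H3 0.2 replicate 1). ugt-44 had 3.54, 3.61 and 3.38 with H3 0.2 and 5.98, 5.67 and 5.17 in the controls, a fall of 2.09 ± 0.22 to the level of the array medians. Its neighbour ugt-43, dim in both groups, fell by 1.2, and ugt-12 fell by 1.74 with differences of -1.69 and -1.79 in the 2 sets. ugt-66 (-1.33), ugt-49 (-1.16), ugt-46 (-1.14) and ugt-8 (-1.07) were called as well. Each lost its call without control replicate 1, where ugt-49 was -0.99, and all but ugt-49 also without other arrays (adjusted p of up to 0.098).

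The counts in the following families stand against 0.456% of all genes called higher and 0.676% called lower. Flavin-containing monooxygenases oxidise nitrogen and sulfur atoms of small molecules. Of the 5 genes, fmo-2 fell from 7.77, 8.08 and 7.65 to 4.60, 4.67 and 5.46, by 2.92 ± 0.22 (adjusted p = 1.5e-05), and fmo-1 by 1.58, a call that was lost without control replicate 1 or 2 or H3 0.2 replicate 2 or 3 (up to 0.093). The other 3 fmo genes had positive differences, so that the median of the list was 0.28. Among 31 short-chain dehydrogenases and related alcohol dehydrogenases, sodh-2 fell by 2.03 ± 0.19, from 4.53, 4.35 and 4.71 to 2.63, 2.54 and 2.34, and dhs-15 by 1.05, a change that was under 2-fold (-0.96) without H3 0.2 replicate 3. Of 48 glutathione S-transferases, gst-24 rose, from 4.62, 4.31 and 4.4 to 6.45, 6.04 and 6.00, by 1.72 ± 0.20, and gst-9 had a like difference of 1.73 that was called with the block (2.01) and not without it (adjusted p = 0.075). comt-5, a catechol-O-methyltransferase, rose by 2.01 ± 0.28 from 2.05, 2.36 and 2.69 to 4.21, 4.64 and 4.28. Of 52 ABC transporters, which pump compounds across membranes, 3 rose and none fell. pgp-6, a P-glycoprotein, was clear of the rest with 8.53, 8.32 and 8.49 against 6.20, 6.14 and 5.41 (2.53 ± 0.22, adjusted p = 5.9e-05). mrp-2 (1.05) and haf-2 (1.01) were near the 2-fold limit: mrp-2 lost its call without H3 0.2 replicate 2, haf-2 without that array or control replicate 1 or 2 (adjusted p of up to 0.060) and with the block, where it was 0.96.

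The deepest falls were in the pud genes, first described as proteins raised in daf-2 insulin receptor mutants. The probe set for pud-1.1 and pud-1.2 had 6.64, 5.35 and 7.08 with H3 0.2 and 11.45, 11.50 and 10.29 in the controls, a fall of 4.73 ± 0.53 (adjusted p = 0.00044), and that for pud-2.1 and pud-2.2 had 7.81, 5.75 and 8.02 against 11.96, 11.92 and 10.78, a fall of 4.36 ± 0.69. In both, H3 0.2 replicate 2 was the lowest array by a wide margin, and the highest treated array lay well below the lowest control. pud-3 fell by 2.91, with differences of -4.01 in set A and -1.41 in set B. pud-4 stood at -2.23 (adjusted p = 0.19) and was not called.

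**Figure D3:**
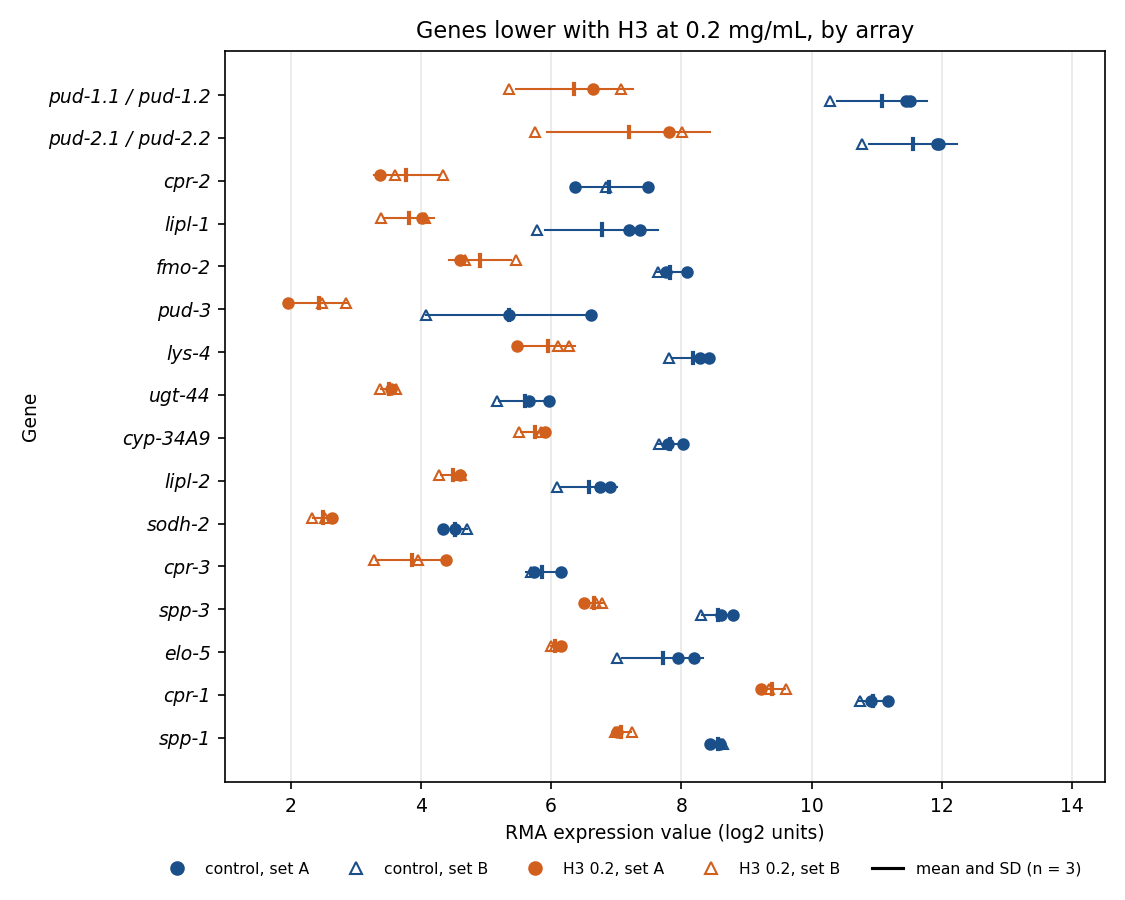
RMA expression value (log2 units, x axis) of 16 genes called lower (y axis), drawn as for the raised genes: control arrays in blue, H3 0.2 arrays in orange, filled circles set A, open triangles set B, bars the mean and SD of 3 arrays. The highest H3 0.2 array of each gene lies below the lowest control array, by the widest margin in the pud-1.1 and pud-1.2 probe set, from 7.08 to 10.29.

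Several genes of digestion in the gut lumen and the lysosome fell. Of 14 cathepsin-type cysteine peptidases 4 were called, and all 4 were lower, where 0.676% of all genes were called lower. The counts of lipases, lysosomal enzymes and saposin-like proteins stand against the same share. The study had already singled out cysteine peptidases, the lysosome and saposin-like proteins on these arrays, so that these counts are no independent evidence. cpr-2 went from 7.48, 6.36 and 6.85 to 3.38, 4.34 and 3.61, a fall of 3.12 ± 0.35 (adjusted p = 0.00046). cpr-1 went from 10.91, 11.18 and 10.75 to 9.23, 9.34 and 9.61, or by 1.55 ± 0.17. cpr-3 fell by 1.99 and cpr-9 by 2.33, the latter lost without control replicate 1 or 2 or H3 0.2 replicate 2 (up to 0.068). Of the 8 lysosomal lipase genes, lipl-1 had 4.02, 3.38 and 4.07 against 7.20, 7.36 and 5.78 and fell by 2.95 ± 0.38, and lipl-2 fell by 2.08. lipl-3 stood at -2.13 (adjusted p = 0.073) and was called with the block (-2.50). Of 20 other lysosomal enzymes and transporters 2 fell. gba-4, a glucocerebrosidase, fell by 1.7 ± 0.17 (adjusted p = 0.00023), and nuc-1, an acid DNase that degrades DNA of food and of dying cells, fell by 1.07, and it was under 2-fold without control replicate 2 or H3 0.2 replicate 2. None of 17 aspartyl proteases and none of 20 subunits of the vacuolar ATPase, which acidifies lysosomes, was called. Of 28 saposin-like proteins, small lipid-binding proteins of which some kill bacteria, 6 fell and none rose, with a list median of -0.39. spp-3 had 6.51, 6.68 and 6.78 against 8.79, 8.61 and 8.30 and fell by 1.90 ± 0.17 (adjusted p = 7.7e-05). spp-2 (-1.73), spp-1 (-1.48), spp-8 (-1.46), spp-5 (-1.38) and spp-25 (-1.19) followed, and spp-3, spp-2 and spp-5 lie in a run of 5 measured genes on the X chromosome (7314969 to 7320354).

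Defence genes were called in both directions. Their counts stand against 0.456% of all genes called higher and 0.676% called lower. With the block these shares were 1.22% and 1.05%. Among 16 lysozymes, the invertebrate-type neighbours ilys-3 and ilys-2 on chromosome IV were higher, by 2.81 and 2.50, and lys-4 and lys-2 were lower, by 2.22 and 1.48. ilys-3 had 8.73, 7.05 and 7.54 against 5.54, 4.95 and 4.4, and its call (adjusted p = 0.048) was lost when any array was left out (up to 0.16); that of ilys-2 (0.012) was lost without control replicate 1 or H3 0.2 replicate 1 or 3 (up to 0.064). With the block their adjusted p-values were 3.4e-05 and 0.00024. lys-4 had 5.47, 6.28 and 6.10 against 8.29, 8.42 and 7.82 (adjusted p = 0.00052) and kept its call in each of these fits, as did lys-2. Of 249 C-type lectins, carbohydrate-binding proteins, 6 fell and none rose: clec-76 (-1.99), clec-61 (-1.85), clec-166 (-1.61), clec-4 (-1.28), clec-49 (-1.27) and clec-66 (-1.24), with a list median of 0.02. With the block 4 were higher, which is near the share of all genes, and 11 lower. clec-61 lost its call in all leave-one-out fits except that without control replicate 3 (up to 0.15), clec-49 without control replicate 1 or 2 or H3 0.2 replicate 2 or 3 (up to 0.13), and clec-66 without control replicate 2 or H3 0.2 replicate 1 or 3 (up to 0.079). The falls among the lectins were 3 without control replicate 2 and 11 without control replicate 3. Of 63 antimicrobial peptide genes 4 rose and none fell, namely nlp-26 (2.24), the caenacins cnc-2 (2.06) and cnc-11 (1.90), and fipr-26 (1.7), with a list median of -0.04. With the block 7 were higher and 3 lower, and without control replicate 3 there were 2 falls. nlp-26 lost its call without H3 0.2 replicate 1 (0.054) and cnc-2 without control replicate 1 or H3 0.2 replicate 2 (up to 0.066). The infection response gene irg-2 rose by 2.34 ± 0.38, from 3.93, 4.05 and 4.31 to 7.12, 6.19 and 6.00, while the CUB-like genes C32H11.4 and dod-17 fell by 1.68 and 1.66. None of 37 pals genes, which mark the response to intracellular pathogens, was called.

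In the lists of lipid metabolism the calls were all falls, and their counts stand against 0.676% of all genes called lower. elo-5 and elo-6, fatty acid elongases needed for monomethyl branched-chain fatty acids, lie with 2 measured genes between them on chromosome IV (5374616 to 5388559). elo-5 had 6.15, 6.00 and 6.05 against 7.94, 8.19 and 7.01 and fell by 1.65 ± 0.25 (adjusted p = 0.0039), and elo-6 fell by 1.40 ± 0.22; the other 14 elongases and desaturases were not called and the list median was -0.43. The fatty acid and retinol binding proteins far-8 and far-7 fell by 1.37 and 1.28, of 17 genes. Of 50 genes of fatty acid oxidation and the fasting response, the carnitine palmitoyltransferase cpt-5 (-1.36) and the acyl-CoA synthetase acs-7 (-1.01) were lower, and cpt-5 lost its call without control replicate 1 or 2 or H3 0.2 replicate 1 or 3 (adjusted p of up to 0.12), acs-7 without H3 0.2 replicate 1 or control replicate 3, where it was under 2-fold. Among genes outside these lists, acox-1.5, a peroxisomal acyl-CoA oxidase, fell by 2.19 (adjusted p = 0.030), lost without control replicate 1 or 2 or H3 0.2 replicate 2 or 3. Of 279 nuclear hormone receptors, ligand-regulated transcription factors, nhr-99 fell by 2.44 ± 0.31, from 5.27, 5.47 and 4.88 to 2.48, 2.83 and 3.00, and nhr-144 by 1.29, a count of 2 that is near the 0.676% of all genes called lower. The 5 yolk protein genes were not called; vit-1 stood at -1.95 (adjusted p = 0.23) and at -1.51 with the block, where it was called.

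Other falls among the 15 largest were those of vap-2, a venom allergen-like protein (-2.83, lost without control replicate 1 or 2 or H3 0.2 replicate 2 or 3), F23D12.11 (-2.55), dlhd-1 (-2.50), T16G12.1 (-2.43), cest-1.2 (-2.36), spig-15 (-2.28), C30G12.2 (-2.22) and C02F5.14 (-2.22). T16G12.1 had 6.41, 6.65 and 4.15 in the controls and 3.25, 3.49 and 3.19 with H3 0.2, so that it differed by -3.28 within set A but -0.81 within set B; it and C30G12.2 lost their calls in all leave-one-out fits except that without control replicate 3. cat-4, the GTP cyclohydrolase needed to make dopamine and serotonin, fell by 1.57 ± 0.21, and haao-1, an enzyme of tryptophan breakdown, by 1.47 ± 0.24. The trehalase tre-3 (-1.23) and the ammonium transporter amt-1 (-1.11) were called at adjusted p-values of 0.044 and 0.043; tre-3 lost its call in all leave-one-out fits except that without control replicate 3 (up to 0.21), amt-1 without control replicate 1 or 2 or H3 0.2 replicate 2 or 3 (up to 0.17) and with the block, where it was -0.98.

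Among enzymes of amino acid synthesis, asns-2, an asparagine synthetase, rose from 9.96, 10.09 and 9.49 to 11.48, 11.66 and 11.52, by 1.71 ± 0.15 (adjusted p = 5.9e-05). phdh-1, the dehydrogenase of the first step of serine synthesis, rose by 1.38 ± 0.23, from 6.25, 6.06 and 6.92 to 7.77, 7.93 and 7.68. A list of 5 genes of serine and asparagine synthesis was drawn up after the values were seen. Of these, 2 were called higher and none lower, with a median of 0.26, where 0.456% of all genes were called higher. The beta-tubulin tbb-6 was the only called gene of 16 tubulins, with 6.04, 6.26 and 5.6 against 4.20, 3.84 and 3.63 (2.07 ± 0.29). The RNA-dependent RNA polymerase gene rrf-2 rose by 1.58 ± 0.14, and the Argonaute gene vsra-1 by 2.2 ± 0.26. mbf-1, a transcriptional coactivator, rose by 1.30, and mek-1, a MAP kinase kinase of the stress response, by 1.06. mbf-1 lost its call without control replicate 1 or 2 or H3 0.2 replicate 3 (up to 0.13), mek-1 without either of these controls or H3 0.2 replicate 2 or 3 (up to 0.17) and with the block, where it was 0.95. Of 190 F-box A genes, fbxa-50 rose by 1.57 and fbxa-127, fbxa-69 and fbxa-6 fell by 1.66, 1.41 and 1.28. The 1 rise is near the 0.456% of all genes called higher, and 0.676% of all genes were called lower. fbxa-69 lost its call without control replicate 1 or 2 or H3 0.2 replicate 1 (up to 0.091), and fbxa-6 in all leave-one-out fits except that without control replicate 3 (up to 0.17).

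The 12 measured protein-coding genes of the mitochondrial genome, a list drawn up after their values were seen, had a median difference of -1.0. All 12 were lower with groups that did not overlap; without overlap, 6.03% of all genes were lower and 7.13% higher. Of the 12, 4 were called: ND4L (-1.42), ND3 (-1.30), COX2 (-1.28) and ND2 (-1.18), against 0.676% of all genes called lower. ND4L had 9.59, 9.73 and 9.84 against 11.14, 11.57 and 10.70, and COX2 had 9.34, 9.23 and 9.17 against 10.60, 10.89 and 10.09. ND5 (-0.97), CYTB (-0.85) and ND1 (-0.78) had adjusted p-values of 0.011, 0.036 and 0.040 and were under 2-fold. ND6 (-1.28), ND4 (-1.03) and ATP6 (-0.90) had 0.36, 0.11 and 0.056, and COX1 and COX3 had the smallest differences (-0.48 and -0.47). The mean level over the 12 genes was 10.77 to 11.03 in the set A controls, 10.32 in the set B control and 9.64 to 9.77 over the 3 H3 0.2 arrays, so that the groups were apart in both sets and the difference was smaller in set B. These transcripts are made as long precursors of 1 strand, so that their levels are not independent of each other. Called members numbered 0 without control replicate 1, control replicate 2 or H3 0.2 replicate 3 and 7 without control replicate 3. None of 42 nuclear genes of the respiratory chain and the ATP synthase was called, with a median of -0.10, and none of 62 ribosomal protein genes, with a median of -0.16. Lower values without overlap were not particular to the mitochondrial genes: 9 of the 42 and 26 of the 62 had them.

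**Figure D4:**
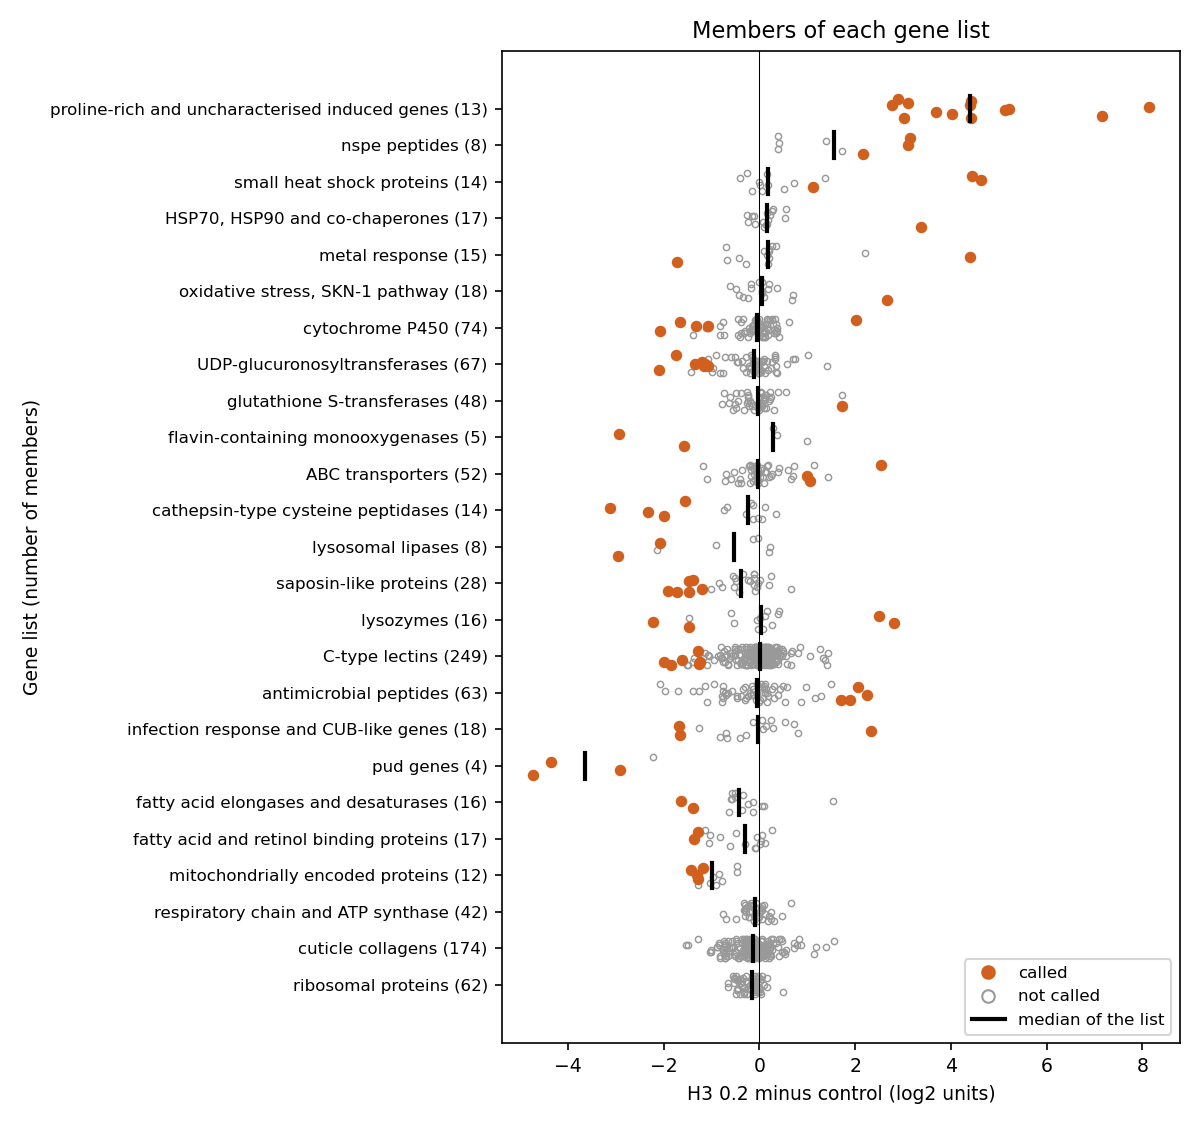
Difference between H3 0.2 and control (log2 units, x axis) for every member of 25 gene lists (y axis, number of members in brackets); filled orange points are called, open grey points are not, and the black bar is the median of the list. The induced uncharacterised genes lie at 2.78 and above, the pud genes at -2.23 and below, and most families have medians near 0 with a few called members at one side.

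None of the tissue markers was called, namely 20 of intestine, 21 of germline and oocyte, 11 of eggshell, 34 of sperm, 16 of epidermis, 14 of pharynx, 14 of body wall muscle and 17 of neurons. The mean level of the intestine markers was 8.33 to 8.36 in the set A controls and 7.99 in the H3 0.2 array of that set, and it was 7.84 in the set B control and 7.86 in both H3 0.2 arrays of set B. With the block, 1.22% of all genes were called higher and 1.05% lower. In that fit 2 intestine markers were called lower, the acid phosphatase pho-1 (-1.98, against -2.58 at an adjusted p of 0.20 without the block) and the peptide transporter pept-1 (-1.11, against -1.45 at 0.20). Over all the other tissue lists, 3 markers were called higher, gsp-3 of sperm (1.06), cut-2 of the cuticle (1.17) and pqn-2 of the pharynx (1.27). The germline list was higher in set B than in set A, with levels of 9.17 to 9.51 and 10.04 in the controls and 9.26 and 9.96 to 10.01 with H3 0.2, and its median difference went from 0.27 to -0.04 with the block. The sperm list had the opposite order, 6.00 to 6.15 and 4.59 in the controls and 5.90 and 4.68 to 5.52 with H3 0.2. The part of these levels in the changes above was not tested.

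Calls in cuticle genes depended on the array set. Of 174 cuticle collagens none was called without the block, with a median of -0.13, and 15 were called higher with it, with a median of 0.16; of 68 abu and pqn genes, many of whose proteins are rich in glutamine and asparagine, 8 were called higher with the block and none without. The block called 1.22% of all genes higher and 1.05% lower. col-113 stood at 1.19 (adjusted p = 0.85) without the block and at 2.08 (0.00013) with it, and its level differed by -2.69 between set B and set A. Within the sets its differences were 1.93 and 2.37. The largest rises called with the block alone were those of CD4.11 (3.62) and, among the list members already named, cdr-4. irg-5 (1.38), pgp-5 (1.99), sod-4 (1.29), rhy-1 (1.59) and grl-4 (2.39) were also called with the block and not without it, as were nspe-2 (1.24) and nspe-6 (1.94).

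The neighbouring concentrations and the crude extract were compared with H3 0.2 on the same arrays, and the differences from the control share those control arrays. No probe set differed by the same criteria between H3 0.2 and H3 0.02 (smallest adjusted p = 0.0939, with 823 probe sets at an unadjusted p under 0.05), between H3 2 and H3 0.2 (0.111, 1216 probe sets) or between RE and H3 0.2 (0.115, 652 probe sets). Of the 135 probe sets higher at 0.2 mg/mL, 105 had a higher mean than at 0.02 mg/mL and 86 a lower mean than at 2 mg/mL, with median differences of 0.22 and 0.16. Of the 188 lower ones, 168 were lower than at 0.02 mg/mL, with a median difference of -0.33, and 91 had a still lower mean at 2 mg/mL, with a median difference of 0.01 between 2 and 0.2 mg/mL. Since these probe sets were chosen for their distance from the control at 0.2 mg/mL, the excess over the lower concentration is a description.

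T22D1.2 had means of 2.52 ± 0.26 (SD, n = 3) in the control, 7.02 ± 1.27 with H3 0.02, 10.66 ± 0.59 with H3 0.2, 12.398 ± 0.19 with H3 2 and 12.01 ± 0.26 with RE. The step from 0.02 to 0.2 mg/mL was 3.65 (95% interval 2.59 to 4.70, limma adjusted p = 0.094), and it was called with the block (3.89, 0.0022) and without H3 0.02 replicate 3. The step from 0.2 to 2 mg/mL, 1.74 (0.69 to 2.79, adjusted p = 0.98), was not called with the block either (1.49, 0.45). T22D1.21 had similarly ordered means, with 3.96 in the control and 5.13, 7.98 and 10.22 with rising H3. Its steps of 2.84 (2.01 to 3.68) and 2.24 (1.41 to 3.08) were both called with the block (adjusted p = 0.00016 and 0.026) and not without it. C36F7.22, dim and not called at 0.2 mg/mL, was 1.26 higher at 2 mg/mL (0.91 to 1.61) and was called with the block. The heat shock pair hsp-16.1 and hsp-16.11 had means that differed less: they were 9.28, 9.57 and 9.54 with rising H3, and the differences were 0.30 (-0.25 to 0.84) and -0.04 (-0.58 to 0.51). cpr-2 and spp-1 likewise lay at 3.72, 3.78 and 3.42 and at 7.03, 7.08 and 7.14, while cpr-1 lay at 9.91, 9.39 and 8.59. zig-13, an immunoglobulin domain gene, and F55G1.7 had their highest mean at 0.2 mg/mL, 3.87 and 5.93, and differed at 2 mg/mL from 0.2 mg/mL by -1.12 (-1.55 to -0.69) and -0.91 (-1.30 to -0.51), at adjusted p-values of 0.37 and 0.50.

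RE was at 0.2 mg/mL by the study's methods and the sample titles and at 2 mg/mL by another label, so that its dose match with H3 0.2 was not settled. The extract lay above H3 0.2 in T22D1.2 by 1.35 (0.30 to 2.40), in Y38H6A.1 by 1.64 (1.18 to 2.09, adjusted p = 0.115) and in W03G1.5 by 0.65 (0.33 to 0.97), and next to it in pud-1.1 and pud-1.2 (0.03, -1.11 to 1.17) and cpr-1 (-0.08, -0.45 to 0.29). None of these differences passed the test.

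**Figure D5:**
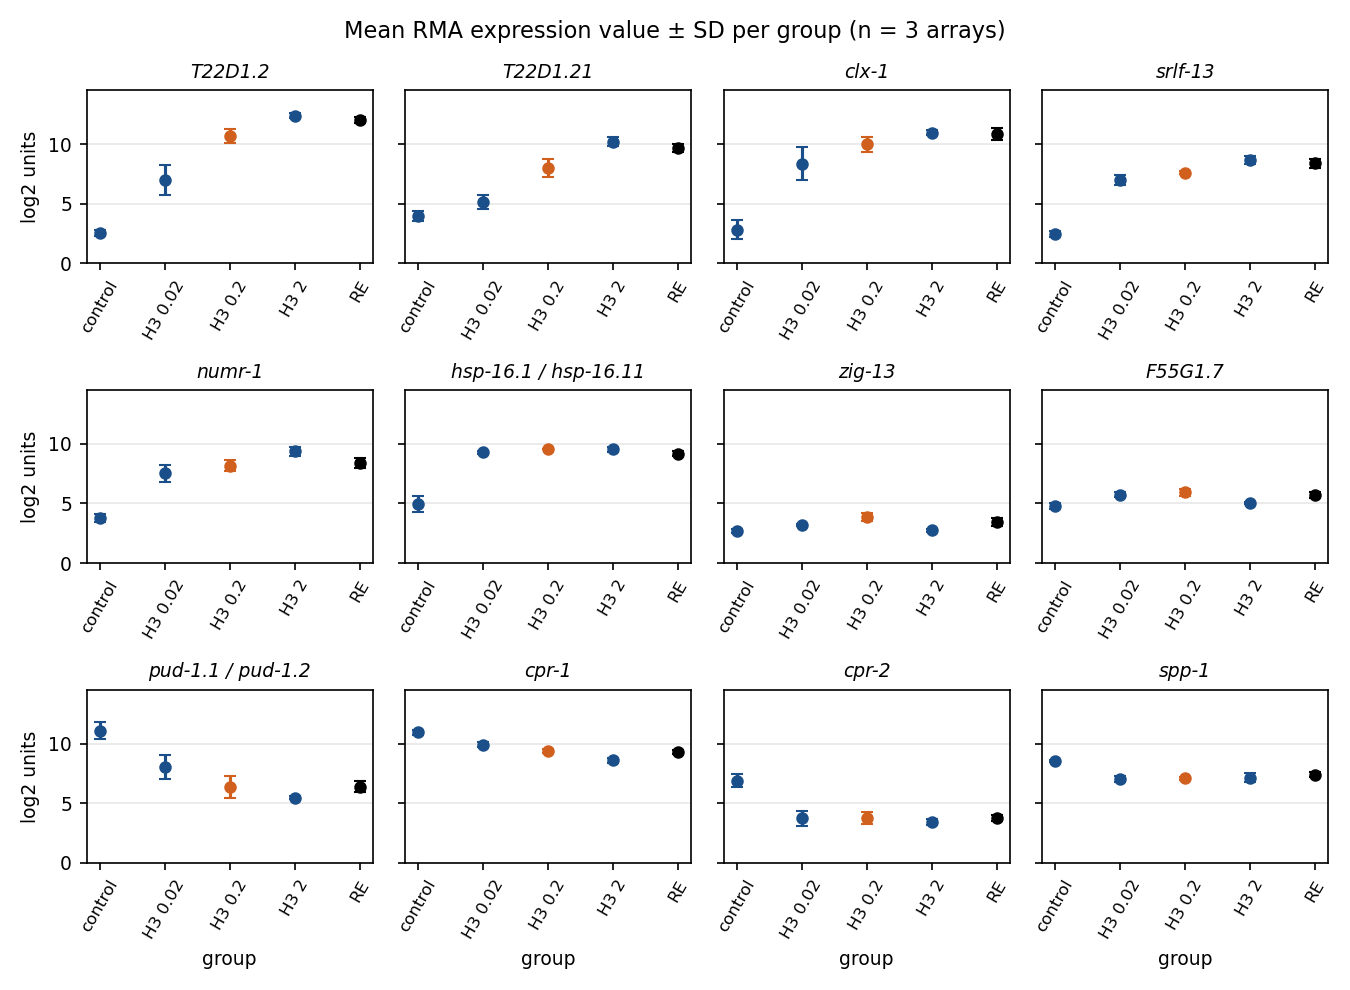
Mean RMA expression value (log2 units, y axis) with SD over 3 arrays in each of the 5 groups (x axis) for 12 genes; H3 0.2 is orange, the control and the other H3 concentrations are blue, and RE is black. The means of T22D1.2 and T22D1.21 are higher at each concentration, the hsp-16.1 and hsp-16.11 probe set stays between 9.28 and 9.57 from 0.02 mg/mL on, and zig-13 and F55G1.7 are highest at 0.2 mg/mL.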

How the data were processed

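Gene expression was measured with Affymetrix C. elegans Gene 1.0 ST arrays. The authors normalised the arrays with RMA in Partek Genomics Suite, quantile normalisation included, and deposited log2 values per probe set; software versions and the build were not given. Such normalisation forces like distributions on all arrays, so that levels are relative. Array numbers (1 to 10, set A; 11 to 18, set B) came from a supplementary header matched to the arrays by identical values; what they stand for is not stated. Probe sets were named through the platform annotation and RefSeq (WBcel235); 592 held several genes and 3120 none, and 5 names came from the study's annotation. A group-means model was fitted to all 15 arrays with limma 3.58.1 in R 4.3.3 (lmFit, eBayes, Benjamini-Hochberg over 29317 probe sets), after the methods' one-way analysis of variance. It was tested only on data simulated without a difference between the array sets. Simulated data with such a difference were given only to the fit with the block. Lists took the probe set of highest mean per gene.

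The text names the 15 largest rises and falls among called probe sets of 1 gene with groups apart, genes of the study's results, the 4 members of each list with the largest moderated statistic, and genes that depended on the array set or differed between treatments. Named after their values were seen were npr-44, nspe-6, Y46H3D.9, hsp-43, cyp-13A2, ugt-66, ugt-46, ugt-8, pgp-5, spp-5, spp-25, clec-49, clec-61, clec-66, irg-5, acox-1.5, phdh-1, rrf-2, vsra-1, mek-1, mbf-1, cat-4, haao-1, tre-3, amt-1, fbxa-6, col-113, gsp-3, cut-2, pqn-2 and the mitochondrial genes. The comparison and the lists were chosen with earlier results of these data known. Replicates were independent repeats per the methods, and 3 arrays per group limit the precision.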

Additional observations from a re-analysis of the deposited data

How the results depend on the processing

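The 323 calls (135 higher, 188 lower, 41.8% higher) depended most on the model of the spread and on single arrays. With the array set as a block there were 651, 348 and 303 (53.5% higher); with only the 6 arrays compared 94, 54 and 40 (57.4% higher), of which 93 were among the 323; with both together, 223 were higher. Set A alone gave 559, 260 and 299, and set B alone, where control replicate 3 is the only control and was assumed to vary like the other groups, gave 20, 20 and 0, with members called in 4 gene lists. Leaving out 1 array gave 209 to 466 calls, 88 to 131 higher and 105 to 335 lower; without control replicate 3, 28.1% were higher. With the block and 1 array left out, there were 597, 599 and 797 without control replicates 1 to 3 (349, 314 and 384 higher, with 285 and 413 lower without replicates 2 and 3) and 596, 674 and 629 without H3 0.2 replicates 1 to 3 (370, 379 and 305 higher, with 295 and 324 lower without replicates 2 and 3). The analysis of variance of the methods called 267, an intensity trend 315, median centring 333, and the 14698 probe sets above the median 297. The cause of these differences was not tested.

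Deviations from the group means of same-numbered control and H3 0.2 arrays correlated at 0.63 and 0.29 for replicates 1 and 3, which lay in the same set. For replicate 2, which did not, they correlated at -0.59. The array set was not removed from these deviations, so that they cannot show whether replicate numbers paired the arrays. The replicate block gave 488 calls, 300 lower, and 2 and 4 calls for H3 0.2 against H3 0.02 and H3 2 against H3 0.2, 6 over the 3 treatment comparisons. The array set block gave 2, 2 and 4, and leaving out 1 array gave 0 to 1. None of the named genes was called in the opposite direction in any setting. The array set block ended 3 of their calls and added 16, and the methods' test ended 16. Low probe sets, near or below the array medians, limit the size of a change that could be seen.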
